A study of Sus scrofa with 23 samples.

Results

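Levels of 8 transcription regulators of tubule identity and energy metabolism were examined in kidney cortex of newborn pigs: HNF4A, HNF4G, PPARA, PPARGC1A, ESRRA, ESRRG, PAX8 and GATA3. The members were chosen by gene symbol, and the estimated counts of all transcripts carrying a symbol were summed. Of the 8, 7 were found among the 26687 genes of the transcript table. PAX8 had no row under that symbol and was not analysed here. Total RNA depleted of ribosomal RNA was sequenced from 23 pigs, 1 library each: 11 labelled CF (CFTR-/-, no functional copy of the chloride channel gene CFTR), 6 labelled HET (CFTR+/-) and 6 labelled WT (CFTR+/+). HET and WT together form the 12 non-CF libraries that the study set against CF. The piglets came from matings of CFTR+/- parents, were not inbred and were studied within hours of birth. The labels give neither sex nor litter.

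Library totals ran from 32901281 to 52952273 estimated counts, so that 3 counts, taken as the detection floor, equalled 0.0567 to 0.0912 CPM (counts scaled to a library of standard size). Intervals from such counts would cover counting error only. CFTR itself went against the direction a lost transcript would give: its mean was 2.26 ± 0.794 CPM in WT (SD, n = 6), 12.6 ± 2.76 in HET (n = 6) and 19.9 ± 3.21 in CF (n = 11). The alleles are therefore named below only as the libraries are labelled. In a multidimensional scaling of their expression, axis 1 placed 13 libraries (2 WT, 5 HET and 6 CF) between -0.91 and -0.19 and 10 (4 WT, 1 HET and 5 CF) between 0.45 and 1.0. The Y-linked gene EIF1AY was at 15.1 to 26.0 CPM in the former and 0 to 0.0961 CPM in the latter. With EIF1AY as a covariate 0 of 7 members were called in CF against non-CF, where 0.215% of all genes were. The comparisons of label pairs were not fitted with this covariate. The pigs also separated by their numbers. Axis 2 placed pigs 1 to 6 and 12 to 18 (13 libraries, 6 CF, 3 HET and 4 WT) between -0.80 and 0.012, and pigs 7 to 11 and 19 to 23 (10 libraries, 5 CF, 3 HET and 2 WT) between 0.33 and 0.73. These are called earlier-numbered and later-numbered pigs, since no label says what the numbers mark. Because the division was taken from expression, a difference between the sets is a description of it. The libraries CF 1 and WT 12 held the highest levels of immediate early genes, with FOS at 417 and 155 CPM against 2.23 to 61.8 in the other 21. Kidney markers were present throughout: 13 of 13 proximal tubule genes were detected, and their summed level was 2059 to 4113 TPM (transcript abundance corrected for length).

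These regulators act in layers. HNF4A and HNF4G are nuclear receptors that hold the mature, absorptive state of proximal tubule cells. PPARA is the fatty acid-sensing nuclear receptor that turns on fat oxidation, and PPARGC1A is the coactivator that couples nuclear receptors, above all the estrogen-related receptors ESRRA and ESRRG, to the genes of mitochondrial respiration. PAX8 and GATA3 are factors of the nephric lineage, and GATA3 persists in the collecting duct. In bulk cortex, fewer cells of a type and less RNA per cell cannot be told apart.

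HNF4A was the most abundant member and HNF4G the least. On the per-length scale, means over the 23 libraries were 118 ± 21.9 TPM for HNF4A, 56.8 ± 10.3 for ESRRA, 45.3 ± 8.06 for PPARGC1A, 32.4 ± 6.19 for PPARA, 20.7 ± 4.26 for ESRRG, 7.19 ± 1.83 for GATA3 and 5.40 ± 1.44 for HNF4G (SD). HNF4A exceeded ESRRA in all 23 libraries, PPARA exceeded ESRRG in 23, and ESRRG exceeded GATA3 in 23. The remaining neighbours overlapped: ESRRA was above PPARGC1A in 20 of 23 libraries, PPARGC1A above PPARA in 21 and GATA3 above HNF4G in 19. CPM, which is not corrected for transcript length, is used below to compare libraries for 1 gene at a time.

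None of the 7 members passed the test for a difference between CF and non-CF. In edgeR's quasi-likelihood test the log2 differences were between -0.13 (ESRRA) and 0.29 (HNF4G), and 0 of 7 passed an adjusted p of 0.05, where 0.349% of all 20921 genes tested did (51 higher and 22 lower, or 48 and 53 with upper-quartile scaling). One member, HNF4G, had an unadjusted p under 0.05, against 13.7% of all genes. DESeq2, which called 2.33% of all genes, also called 0 of the 7, as did the Mann-Whitney test, which called 0.22%. Against WT alone the CF libraries gave 0 calls among the members (0.336% of 21434 genes), HET against WT gave 0 (0.00467%) and CF against HET gave 0 (0% of genes called). Unadjusted p was under 0.05 for 2, 2 and 1 members in these comparisons, against 14%, 8% and 9.83% of all genes. The comparisons share libraries, so their results are not independent of each other.

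**Figure D1:**
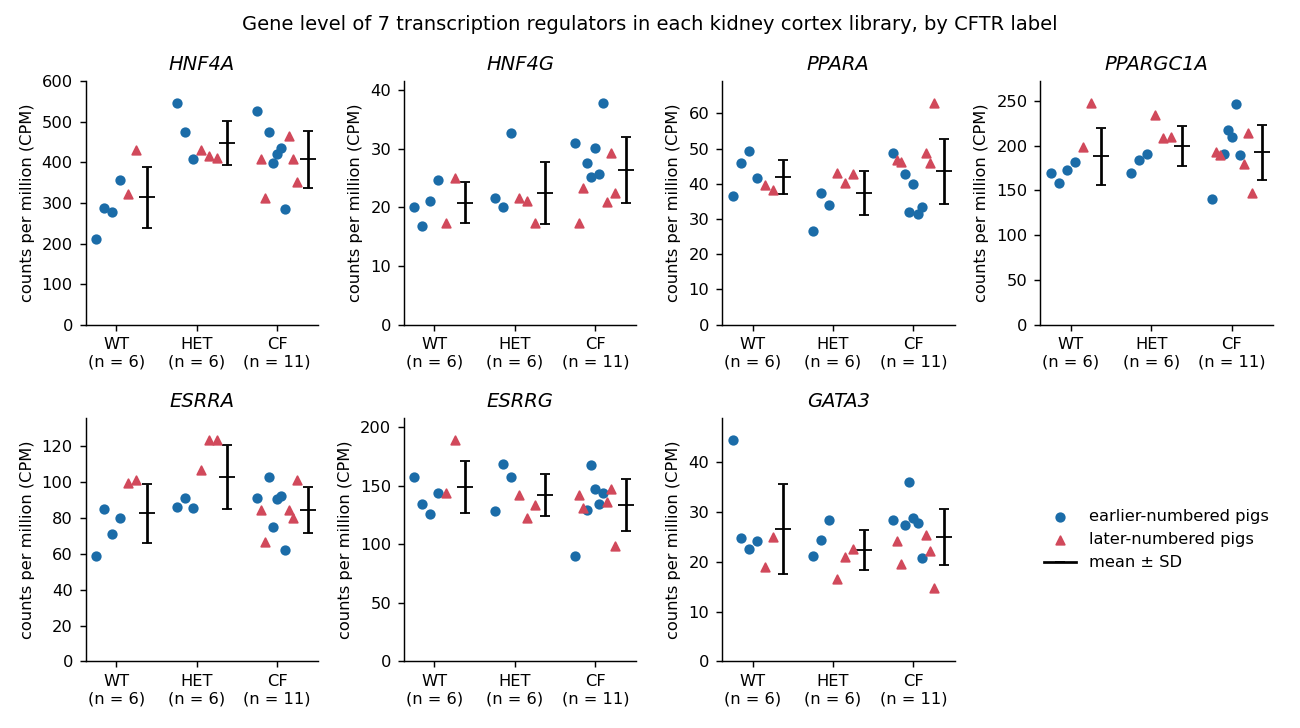
CPM of each member (vertical axes, from 0) in every library, grouped by CFTR label, with circles for earlier-numbered and triangles for later-numbered pigs, and the mean ± SD as a bar. Group ranges overlap for each gene, and WT 12 lies apart from the other WT libraries in GATA3, at 44.5 CPM.

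**Figure D2:**
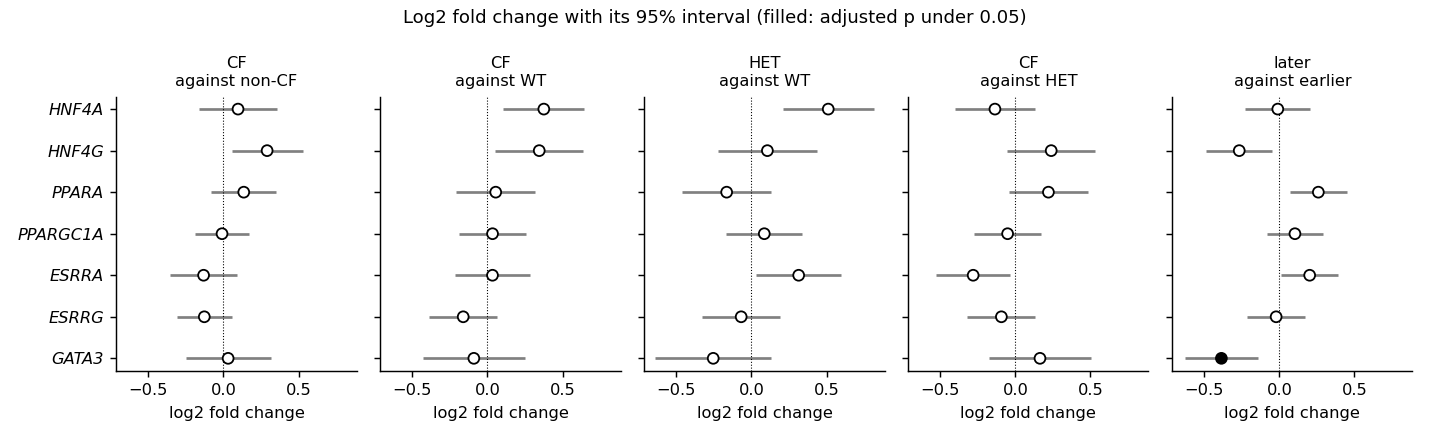
Log2 fold change of each member (horizontal axes) with its 95% interval in the 3 label comparisons, CF against non-CF and later against earlier pig numbers. Filled points passed an adjusted p of 0.05: only GATA3 in the comparison of pig numbers did.

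HNF4A, which governs lipid, glucose and organic anion handling in proximal tubule, was lowest in WT. Its lowest, median and highest CPM were 210, 305 and 431 in WT, 408, 423 and 546 in HET, and 285, 408 and 525.7 in CF. The 6 HET libraries lay above the WT median, as did 10 of 11 CF libraries, and the ranges overlapped. HET against WT gave a log2 difference of 0.51 (SE 0.147, adjusted p = 0.443 in edgeR), a ratio of 1.43 with a 95% interval of 1.16 to 1.76. CF against WT gave 0.38 (SE 0.130, adjusted p = 0.179 in edgeR). Exact two-sided permutation tests of the mean log2 CPM gave p = 0.00866 for HET against WT and 0.0197 for CF against WT, which became 0.182 and 0.206 after adjustment over the 21 tests of members and label pairs. CF against non-CF, whose control side joins HET and WT, gave 0.10 (SE 0.127, adjusted p = 0.804 in edgeR), with 0.21 in earlier-numbered and -0.043 in later-numbered pigs. WT 12 had the lowest HNF4A of all, 210 CPM, and without it and CF 1 the CF against WT difference was 0.25 (adjusted p = 0.373 in edgeR). The Y-linked EIF1AY was high in 5 of 6 HET and 2 of 6 WT libraries, and its part in HET against WT was not tested.

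The HNF4A gene spans chr17:46783772-46847505 on the forward strand of Sscrofa11.1 and its 5 transcript models start at 2 places 37149 bases apart. In other mammals the gene has an upstream promoter, P2, and a downstream one, P1, whose products differ at the amino end. The 250 bases before each annotated start, read from the RefSeq genome, are shown because the share of counts at each start was measured. Capitals mark a GATA-factor site, AGATAA. Only these letters were searched for GATA factors, so a window without capitals is not shown to lack other forms of the site.
HNF4A upstream start, chr17:46783522-46783771, forward strand: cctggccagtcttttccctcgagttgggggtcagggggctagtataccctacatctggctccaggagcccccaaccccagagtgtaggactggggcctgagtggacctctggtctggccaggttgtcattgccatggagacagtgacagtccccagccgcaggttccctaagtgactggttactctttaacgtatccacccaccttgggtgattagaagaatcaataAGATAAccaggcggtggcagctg
HNF4A downstream start, chr17:46820671-46820920, forward strand: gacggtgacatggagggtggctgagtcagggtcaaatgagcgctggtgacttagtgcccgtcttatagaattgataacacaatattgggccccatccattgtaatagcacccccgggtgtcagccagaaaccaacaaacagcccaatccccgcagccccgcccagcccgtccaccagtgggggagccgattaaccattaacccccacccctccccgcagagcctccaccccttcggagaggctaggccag
AGATAA lies 23 bases before the upstream start, and 8.09% of 19544 promoters of the same length hold it on either strand. The windows of the members hold no match to the DR1 element that HNF4 and PPAR receptors bind or to the estrogen-related receptor site TCAAGGTCA, searched on both strands. These occur in 0.0256% and 0.333% of promoters.

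Transcripts from the downstream start held 66.9 ± 3.62% of the HNF4A counts (SD, n = 23) and those from the upstream start 33.1%. The downstream share was 68.6 ± 3.47% in CF and 65.3 ± 3.14% in non-CF, a difference of 3.22 percentage points (permutation p = 0.0305, adjusted p = 0.107 over 14 start sites with a share of at least 10%). It was 67.3% against 64.6% in earlier-numbered pigs and 70.0% against 66.4% in later-numbered pigs. Both starts held counts in every library, the upstream one between 27.2% and 40.4%. The shares are kallisto's division of reads among transcripts that overlap over most of their length.

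HNF4G, the paralog of HNF4A expressed in kidney and gut, had the smallest unadjusted p of the members in CF against non-CF. Its lowest, median and highest CPM were 16.8, 20.6 and 24.9 in WT, 17.3, 21.3 and 32.7 in HET, and 17.3, 25.8 and 37.7 in CF. Of the 11 CF libraries, 9 lay above the non-CF median and 10 lay within the non-CF range. The log2 difference was 0.29 (SE 0.115, adjusted p = 0.241 in edgeR), a ratio of 1.22 with a 95% interval of 1.04 to 1.44, and the Mann-Whitney test gave an adjusted p of 0.300. In earlier-numbered pigs it was 0.40 (adjusted p = 0.346 in edgeR) and in later-numbered pigs 0.16 (adjusted p = 0.630 in edgeR). CF against WT gave 0.34 (SE 0.142, adjusted p = 0.267 in edgeR). The most downstream of its 3 annotated starts carried 80 ± 5.39% of HNF4G counts (SD, n = 23), at 80.2% in CF and 79.8% in non-CF (permutation p = 0.881).

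PPARA, encoded at chr5:3302755-3321091, has a single transcript model of 1488 bases in the table. Its lowest, median and highest CPM were 36.5, 40.6 and 49.2 in WT, 26.5, 38.9 and 43.2 in HET, and 31.4, 46.0 and 62.9 in CF. The CF libraries reached both below and above the WT range. CF against non-CF gave a log2 difference of 0.14 (SE 0.105, adjusted p = 0.625 in edgeR), or 0.069 without CF 9. Within the number sets it was -0.025 in earlier-numbered pigs (adjusted p = 0.974 in edgeR) and 0.30 in later-numbered pigs (SE 0.0946, adjusted p = 0.114 in edgeR). In the later set the 5 CF libraries, at 46.0 to 62.9 CPM, lay above the 5 non-CF libraries, at 38.3 to 43.2. Of all 20882 genes tested in that set 473 (2.27%) were called, and 3635 had an unadjusted p under 0.05 in edgeR. How many genes separated in this way was not counted. The difference between the sets, 0.32 (SE 0.185), had an adjusted p of 0.576 in edgeR, so it was not shown to differ between them.

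PPARGC1A, the coactivator of mitochondrial biogenesis, was nearly level across labels. Its lowest, median and highest CPM were 159, 177 and 247 in WT, 170, 199.6 and 234 in HET, and 140, 191 and 247 in CF. The CF range held 11 of the 12 non-CF libraries. CF against non-CF gave a log2 difference of -0.01 (SE 0.0876, adjusted p = 0.980 in edgeR), and the 95% interval of the ratio was 0.877 to 1.13. Within the sets the direction turned: CF was at 199 ± 35.6 CPM (SD, n = 6) and non-CF at 175 ± 10.9 (n = 7) in earlier-numbered pigs, and CF at 184 ± 24.6 (n = 5) and non-CF at 219.5 ± 20.5 (n = 5) in later-numbered pigs. The log2 difference was 0.19 in the earlier set (adjusted p = 0.638 in edgeR) and -0.25 in the later set (adjusted p = 0.221 in edgeR). The difference between them was -0.44 (SE 0.151, adjusted p = 0.299 in edgeR). Without CF 1 and WT 12 it was -0.50 (adjusted p = 0.101 in edgeR).

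The gene spans chr8:17841844-18527953 on the reverse strand, and its 7 transcript models start at 5 places. Windows of 250 bases are shown before the farthest upstream start, where CF 1 stood apart, and before the start of the main curated transcript. Capitals mark a palindromic cyclic AMP response element, TGACGTCA, the site that CREB-family factors bind.
PPARGC1A farthest upstream start, chr8:18527954-18528203, reverse strand: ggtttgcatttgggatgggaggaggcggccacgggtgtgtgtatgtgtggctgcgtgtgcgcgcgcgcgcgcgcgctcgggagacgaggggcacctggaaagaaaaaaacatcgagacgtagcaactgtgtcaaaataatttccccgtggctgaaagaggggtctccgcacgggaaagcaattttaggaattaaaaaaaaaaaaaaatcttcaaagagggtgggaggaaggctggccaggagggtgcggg
PPARGC1A start 581019 bases downstream, chr8:17946935-17947184, reverse strand: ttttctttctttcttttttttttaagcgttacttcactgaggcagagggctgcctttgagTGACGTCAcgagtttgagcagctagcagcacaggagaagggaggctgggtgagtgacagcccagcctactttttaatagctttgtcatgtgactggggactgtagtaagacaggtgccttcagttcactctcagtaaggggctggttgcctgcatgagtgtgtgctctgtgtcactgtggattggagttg
The element begins 190 bases before the downstream start, and 1.70% of 19544 promoters hold it. The window of the farthest upstream start has no match to these letters.

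The library CF 1 stood apart in where its PPARGC1A counts fell. Transcripts from the farthest upstream start held 18.9% of its PPARGC1A counts (1091 estimated counts), against 0.684% to 3.26%, median 1.46%, in the other 22 libraries (76.1 to 238 counts). CF 1 also had the lowest total PPARGC1A, 140 CPM, and 22.1% of its counts (1274) at the fourth start, where the other libraries had 36.5% to 46.4% (2551 to 5003 counts). At the fifth start it had 9.72%, against 13.7% to 18.6%. Its share at the start with the printed cyclic AMP response element was not reduced. That share was 45.2% (2608 counts), against 32.7% to 44.0% in the other libraries (2329 to 4516 counts). The same library had the highest CREM (40.4 CPM), SIK1 (156 CPM), EGR1 (313 CPM) and FOS of the 23. WT 12, the next in these genes with CREM at 27.1 and SIK1 at 83.2 CPM, had 1.94% of its counts at the farthest upstream start, inside the range of the rest. CF 1 also had the highest summed erythroid (1040 TPM) and smooth muscle (733 TPM) markers. The part of these measures in the start shift was not tested.

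**Figure D3:**
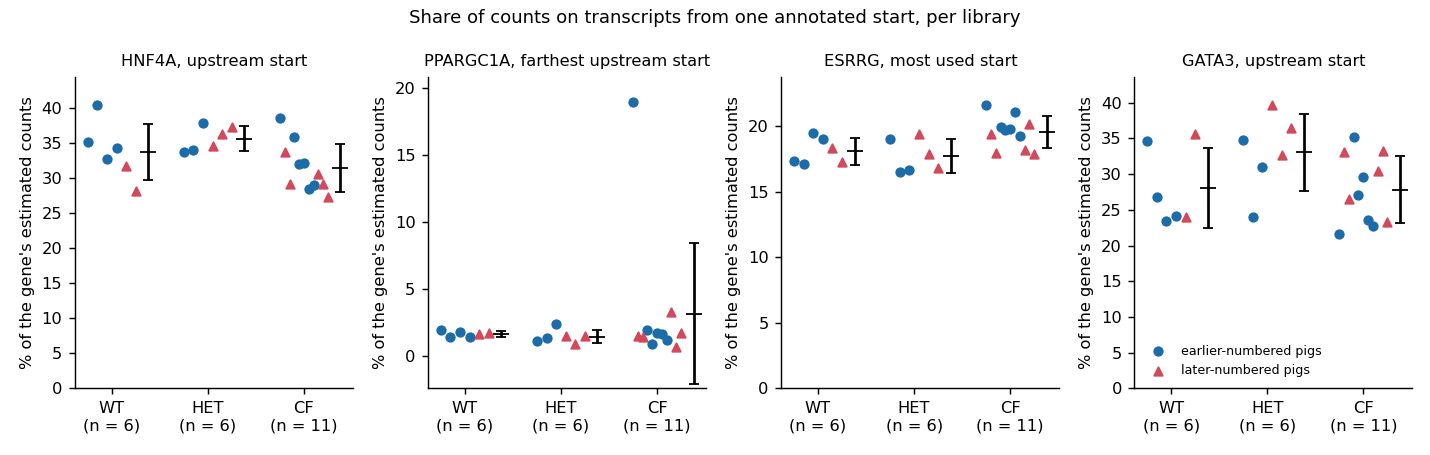
Share of a gene's estimated counts (percent, vertical axes) on transcripts from 1 annotated start, per library, for HNF4A, PPARGC1A, ESRRG and GATA3, with circles for earlier-numbered and triangles for later-numbered pigs and the mean ± SD as a bar. CF 1 lies at 18.9% in the PPARGC1A panel while the other 22 libraries lie at or below 3.26%.

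ESRRA, the receptor through which PPARGC1A drives respiratory chain genes, was highest in HET. Its lowest, median and highest CPM were 58.7, 82.6 and 101 in WT, 85.7, 99.1 and 124 in HET, and 62.1, 84.6 and 103 in CF. The HET libraries lay above the WT median in 6 of 6 cases, with overlapping ranges. The log2 difference was 0.31 for HET against WT (SE 0.137, adjusted p = 0.611 in edgeR) and -0.28 for CF against HET (SE 0.120, adjusted p = 0.448 in edgeR). The exact permutation p of these comparisons was 0.0736 and 0.0337, or 0.309 and 0.206 after adjustment over the 21 tests. EIF1AY was high in 5 of 6 HET, 2 of 6 WT and 6 of 11 CF libraries, and its part in these comparisons was not tested.

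ESRRA separated by pig number among the non-CF libraries. Their mean was 79.8 ± 11.2 CPM in the 7 earlier-numbered and 111 ± 11.8 in the 5 later-numbered pigs (SD), and all 5 later values, 99.5 to 124, exceeded the earlier maximum of 91.3. Among non-CF libraries the later against earlier difference was 0.44 on the log2 scale (adjusted p = 0.0246 in edgeR), and PPARGC1A gave 0.32 (adjusted p = 0.0409 in edgeR), where 3.7% of all genes were called (2.24% higher, 1.47% lower). Among CF libraries ESRRA gave -0.04 and PPARGC1A -0.11 (adjusted p = 0.940 and 0.791 in edgeR), where 0.314% of all genes were called (0.124% higher, 0.19% lower). CF against non-CF for ESRRA was accordingly 0.11 in earlier-numbered pigs (adjusted p = 0.839 in edgeR) and -0.40 in later-numbered pigs (SE 0.110, adjusted p = 0.0733 in edgeR). The test of that difference, -0.51 (SE 0.172), had an unadjusted p of 0.00655 and an adjusted p of 0.276 in edgeR, so the CF difference was not shown to differ between the sets. Over the 7 members 0 passed this test, where 0.0191% of all genes did (0.00478% higher, 0.0143% lower), and 2, ESRRA and PPARGC1A, had an unadjusted p under 0.05 against 10.1% of all genes.

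ESRRG, the constitutively active estrogen-related receptor prominent in the thick ascending limb and distal segments, had lowest, median and highest CPM of 126, 144 and 189 in WT, 122, 138 and 169 in HET, and 89.7, 136 and 168 in CF. Its 2 lowest values were in CF 1 (89.7) and CF 9 (98.6), and the other 9 CF libraries lay within the non-CF range. CF against non-CF gave a log2 difference of -0.13 (SE 0.0896, adjusted p = 0.575 in edgeR; -0.081 without CF 1), with -0.094 in earlier-numbered and -0.15 in later-numbered pigs. ESRRG has 26 transcript models from 13 starts across chr10:6710615-7371419, none of which held more than 18.7% of the counts on average.

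The most abundant ESRRG transcript, XM_021064128.1, took a larger share in CF. It held 19.5 ± 1.20% of ESRRG counts in CF (SD, n = 11) and 17.9 ± 1.115% in non-CF (n = 12), a difference of 1.65 percentage points (permutation p = 0.00314, adjusted p = 0.0188 over the 6 members with several transcripts). Leaving out single libraries gave differences of 1.45 to 1.82 points and adjusted p from 0.00942 to 0.0387. The shares were 20.2% and 17.9% in earlier-numbered pigs and 18.7% and 17.9% in later-numbered pigs. The transcript is the only one from its start. The share of the start 50490 bases into the gene was lower in CF, at 9.55 ± 0.866% against 10.9 ± 1.22% (permutation p = 0.00613, adjusted p = 0.0429 over 14 starts), with 9.25% against 11.0% in the earlier and 9.90% against 10.6% in the later set. The later difference rests on HET 21: without it, CF was at 9.90 ± 0.715% (SD, n = 5) and non-CF at 9.88 ± 0.716% (n = 4). When single libraries were left out, adjusted over the same 14 starts, this start lost its call in 12 of 23 cases (adjusted p up to 0.0916, and 0.0823 without HET 21, at -1.04 points), and the start of XM_021064128.1 lost its call in 9 of 23 (up to 0.0857). The window before the first of these is shown because 71.6% of its bases are soft-masked as repeat in the RefSeq genome.
ESRRG start of XM_021064128.1, chr10:7037526-7037775, reverse strand: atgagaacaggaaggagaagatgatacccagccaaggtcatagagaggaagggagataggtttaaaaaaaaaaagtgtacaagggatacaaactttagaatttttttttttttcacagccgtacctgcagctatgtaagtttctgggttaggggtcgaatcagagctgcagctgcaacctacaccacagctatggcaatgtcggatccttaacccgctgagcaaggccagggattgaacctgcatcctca
The masked share was 87.6% before the start whose share was lower, and 0% and 20% before the 2 farthest upstream starts. Starts that were tested and not called had heavily masked windows too, at 78.8%, 76.4% and 100% for those 93852, 339688 and 422154 bases into the gene. In the exons of XM_021064128.1 it was 21.5%. The part of repeats in the estimated shares was not tested.

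GATA3, a zinc-finger factor of the nephric duct that marks the collecting duct, had lowest, median and highest CPM of 19, 24.4 and 44.5 in WT, 16.6, 21.8 and 28.5 in HET, and 14.8, 25.4 and 36.1 in CF. WT 12 was the highest of the 23 libraries and stood clear of the next WT library at 25.1. CF against non-CF gave a log2 difference of 0.03 (SE 0.138, adjusted p = 0.959 in edgeR), with 0.059 in earlier-numbered and 0.032 in later-numbered pigs. GATA3 was the only member called in a comparison across all libraries, and the comparison was that of pig numbers: its mean was 27.6 ± 6.48 CPM in earlier-numbered pigs (SD, n = 13) and 21 ± 3.55 in later-numbered pigs (n = 10), and all 10 later libraries lay below the earlier median. The log2 difference, with labels in the fit, was -0.39 (SE 0.119, adjusted p = 0.0402 in edgeR), and 9.96% of 21582 genes were called in that comparison, 4.68% lower. The call was lost, at adjusted p from 0.0502 to 0.0949 in edgeR, without any of WT 22, HET 15, HET 19, HET 20, CF 3, CF 5, CF 9 or CF 11, and without CF 1 and WT 12 together (0.0520). It was also lost within non-CF libraries (adjusted p = 0.219 in edgeR) and within CF libraries (0.255).

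None of the other members passed the threshold by pig number over all libraries. PPARA was at 45.5 ± 7 CPM in later-numbered and 38.4 ± 7.01 in earlier-numbered pigs (log2 difference 0.26, SE 0.0918, adjusted p = 0.0703 in edgeR), HNF4G at 21.5 ± 3.80 and 25.7 ± 5.96 (-0.27, adjusted p = 0.104 in edgeR) and ESRRA at 97.1 ± 18.4 and 82.5 ± 12.6 (0.20, adjusted p = 0.158 in edgeR). PPARA passed without WT 17, WT 23 or CF 1 (adjusted p = 0.0434, 0.0416 and 0.0471 in edgeR) and HNF4G without WT 23 (0.0415). With GATA3 these made 4 of 7 members at an unadjusted p under 0.05, against 26.5% of all genes.

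Cell-type markers moved with GATA3, ESRRA and ESRRG. Across the 23 libraries GATA3 rose with the summed level of 8 principal cell markers (Pearson r = 0.68, permutation p = 0.00041, adjusted p = 0.0187 over 91 member and marker pairs; Spearman rho = 0.58, permutation p = 0.00429, adjusted p = 0.0651). It ran against 13 proximal tubule markers (r = -0.70, permutation p = 0.00020, adjusted p = 0.0182; rho = -0.59, permutation p = 0.00337, adjusted p = 0.0651). Without the 2 libraries farthest from the marker median these were 0.59 and -0.60. Within earlier-numbered pigs they were 0.71 and -0.54 and within later-numbered pigs 0.30 and -0.45. The principal cell sum was 214 to 387 TPM in earlier-numbered and 202 to 308 in later-numbered pigs, and the proximal tubule sum 2059 to 3125 and 2808 to 4113 TPM. ESRRA ran against stromal markers (r = -0.60, permutation p = 0.00257, adjusted p = 0.0468; rho = -0.59, permutation p = 0.00360, adjusted p = 0.0651; -0.47 without the 2 farthest libraries; -0.56 and -0.50 within the earlier and later sets), whose sum was 754 to 1698 TPM in earlier-numbered and 735 to 969 in later-numbered pigs. It also ran against adrenal cortex markers (r = -0.66, permutation p = 0.00063, adjusted p = 0.0191; rho = -0.68, permutation p = 0.00039, adjusted p = 0.0355; -0.65 without the 2 farthest libraries; -0.69 and -0.63 within the sets), whose sum was 2.48 to 5.46 TPM over all libraries, and immune markers (r = -0.60, permutation p = 0.00253, adjusted p = 0.0468; rho = -0.51, permutation p = 0.0143, adjusted p = 0.186; -0.58 without the 2 farthest libraries; -0.51 and -0.68 within the sets), at 48.5 to 78.9 TPM. ESRRG rose with the adrenal cortex markers (r = 0.58, permutation p = 0.00315, adjusted p = 0.0478; rho = 0.46, permutation p = 0.0285, adjusted p = 0.218; 0.47 without the 2 farthest libraries; 0.61 and 0.54 within the sets). By rank, only ESRRA with adrenal cortex markers, of these 6 pairs, passed the adjustment. Each marker of these lists in the table exceeded 3 counts in at least 1 library, but CYP17A1 and NR5A1 of the adrenal cortex list were at 0 in some libraries. The part of cell make-up in the differences of GATA3 and ESRRA by pig number was not tested.

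The level of long genes moved with GATA3 and ESRRA. The mean level of 682 genes spanning at least 300 kb, in centred log2 CPM, correlated with GATA3 (r = 0.73, permutation p = 0.00010, adjusted p = 0.00035 over 7 members; rho = 0.61, permutation p = 0.00256) and with ESRRA (r = -0.74, permutation p = 4e-05, adjusted p = 0.00028; rho = -0.69, permutation p = 0.00031). Without the 2 libraries farthest from its median these were 0.66 and -0.61, and within the earlier and later sets 0.55 and 0.60 for GATA3 and -0.77 and -0.63 for ESRRA. HNF4A gave r = -0.44 (permutation p = 0.0352, adjusted p = 0.0821; rho = -0.35, permutation p = 0.102) and -0.20 without the 2 farthest libraries. Within the earlier and later sets it gave -0.79 and 0.18. GATA3 and ESRRA are themselves short, at 30294 and 9365 bases. The index was highest in WT 12 (0.16) and lowest in HET 21 (-0.10). Its part in the comparisons was not tested.

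Members varied together in pairs. Over the 21 pairs, PPARGC1A and ESRRG correlated (r = 0.63, permutation p = 0.00127, adjusted p = 0.0267; rho = 0.44, permutation p = 0.0372, adjusted p = 0.260), as did HNF4A and ESRRA (r = 0.60, permutation p = 0.00272, adjusted p = 0.0286; rho = 0.57, permutation p = 0.00551, adjusted p = 0.116). The first fell to 0.32 without CF 1 and CF 9 and rests in part on these libraries, although it was 0.56 within earlier-numbered and 0.83 within later-numbered pigs. The second was 0.39 without WT 12 and WT 17, 0.82 in the earlier and 0.34 in the later set. After centring within label and number set, the coactivator and its receptor were at r = 0.82 and HNF4A and ESRRA at 0.66.

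PPARA ran opposite to PPARGC1A and ESRRG within the sets. Its r with PPARGC1A was -0.40 over all libraries (permutation p = 0.0560, adjusted p = 0.235; rho = -0.33, permutation p = 0.120), -0.51 in earlier-numbered and -0.87 in later-numbered pigs, and -0.46 without HET 13 and CF 9. With ESRRG it was -0.51 (permutation p = 0.0141, adjusted p = 0.0988; rho = -0.51, permutation p = 0.0137), -0.46 and -0.75 within the sets, and -0.53 without the same libraries. With ESRRA it was 0.17 over all libraries (permutation p = 0.435, adjusted p = 0.635; rho = 0.030, permutation p = 0.895), 0.13 in the earlier and -0.28 in the later set, and 0.57 after centring within label and set (permutation p = 0.00502, adjusted p = 0.0264). After the same centring PPARA was at -0.60 with PPARGC1A (permutation p = 0.00210, adjusted p = 0.0147) and -0.55 with ESRRG (permutation p = 0.00660, adjusted p = 0.0277). Centring uses up degrees of freedom, so these centred p-values are too small. CF 9, with the highest PPARA of all (62.9 CPM), had the second lowest PPARGC1A (147 CPM) and ESRRG, and CF 1 the lowest of both.

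**Figure D4:**
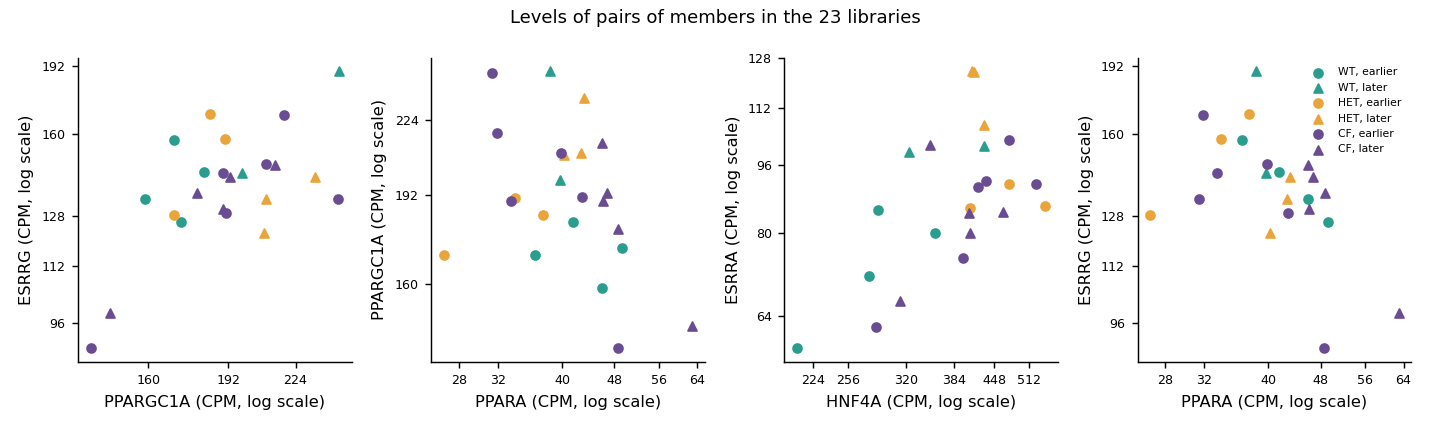
CPM of 4 pairs of members in the 23 libraries (both axes logarithmic), coloured by label, with circles for earlier-numbered and triangles for later-numbered pigs. CF 1 and CF 9 lie at the low end of both PPARGC1A and ESRRG, and WT 12 at the low end of both HNF4A and ESRRA.

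The genes whose level followed each member most closely, among 20914 other genes over the 23 libraries, differed from member to member. For HNF4A they were FAM120B (r = 0.85), SQSTM1 (0.84) and GZF1 (0.83), and for HNF4G they included CREBRF (0.77) and RNF125 (0.77). For PPARA they were CDPF1 (0.88), HOGA1 (0.84), the mitochondrial enzyme of hydroxyproline breakdown, and SFT2D2 (0.82). PPARGC1A was followed by IL7 (0.80) and the uncharacterised LOC110261971 (0.79) and LOC102157778 (0.77), ESRRG by IL1RAPL1 (0.83), LOC110256829 (0.83) and LOC110255982 (0.82). For ESRRA they were BST1 (0.86), SCAMP2 (0.86) and the amino acid exchanger SLC1A5 (0.86). GATA3 was followed by PROX1 (0.86), THSD4 (0.85) and PDZRN3 (0.85), with r of 0.84 to 0.85 after centring within label and set. These are descriptions over 23 libraries that differ in depth and number set, and the genes were picked as the highest of all.

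Target genes of ESRRA and PPARGC1A in the mitochondrion gave no call by label. Of 28 listed genes 21 were in the table, and in CF against non-CF 20 of 21 had a lower mean (median log2 difference -0.14, against -0.00052 over all genes). None was called, where 0.349% of all genes were, and 5 had an unadjusted p under 0.05 on the lower side and 1 on the higher, against 13.7% of all genes in either direction. CYCS, cytochrome c, was at 97.3 CPM in CF and 144 in non-CF (log2 difference -0.56, SE 0.162, adjusted p = 0.102 in edgeR), and PERM1, a muscle-type partner of PPARGC1A, at 1.95 and 1.30 CPM (0.58, adjusted p = 0.225 in edgeR). In HET against WT 19 of 21 had a higher mean (median 0.15, against -0.0043 over all genes) with 0 called, where 0.00467% of all genes were. By pig number, 20 of 21 had a higher mean in later-numbered pigs (median 0.27) and 10 were called higher, against 5.28% of all genes: among them NDUFS3 of complex I (0.38, adjusted p = 0.0223 in edgeR), the citrate cycle enzyme IDH3A (0.32, 0.0229), the mitochondrial creatine kinase CKMT2 (0.53, 0.0216), and the cytochrome oxidase subunits COX5B (0.29, 0.0333) and COX6A1 (0.28, 0.0239). CKMT2 held its call with any 1 library left out, IDH3A lost it without WT 22 (adjusted p = 0.0678 in edgeR), NDUFS3 and COX6A1 lost it without CF 9 or WT 22, and COX5B without any of 8 libraries (CF 3, CF 5, CF 9, HET 13, HET 15, HET 20, WT 12 or WT 22), at up to 0.0908. The proximal tubule marker sum moved the same way, as given above, and its part was not tested. ESRRA itself was not called in that comparison.

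PPARA targets of fatty acid breakdown showed no call by label. Of 23 tested, 9 had higher and 14 lower means in CF than in non-CF (median -0.04), and 0 were called. SLC25A20, the carnitine-acylcarnitine carrier, was at 40.7 and 52.1 CPM (log2 difference -0.36, adjusted p = 0.181 in edgeR), and the peroxisomal thiolase ACAA1 at 157 and 132 (0.25, adjusted p = 0.336 in edgeR). The most abundant were FABP3 (609 TPM) and HADHA (136 TPM). By pig number 16 of 23 were higher in later-numbered pigs and 1 was called, a share near the 5.28% of all genes called higher. It was the medium-chain dehydrogenase ACADM (0.41, adjusted p = 0.0290 in edgeR), which lost its call without any of CF 3, CF 9, HET 13, HET 15, HET 19 or WT 22 (adjusted p up to 0.0762 in edgeR).

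HNF4A targets gave no call by label. Of 21 tested, 12 had higher and 9 lower means in CF than in non-CF (median 0.05), with 5 higher and 0 lower at an unadjusted p under 0.05, against 13.7% of all genes in either direction. SLC2A2, the basolateral glucose transporter GLUT2, was at 1640 CPM in CF and 1035 in non-CF (log2 difference 0.67, SE 0.175, adjusted p = 0.0769 in edgeR), and the apolipoprotein APOC3 at 19.5 and 11.8 CPM (0.73, adjusted p = 0.126 in edgeR). By pig number 5 of 22 were called higher and 1 lower in later-numbered pigs, against 5.28% and 4.68% of all genes. The 5 include CYP3A29, which was at 0.0311 CPM, under the detection floor, in the earlier set and at 0.569 CPM in the later set. It passed the filter on low values only through the later set and its call is no support. The organic anion transporter SLC22A6 differed by 1.37 and the apolipoprotein APOB by -1.28 (adjusted p = 0.00597 and 0.00304 in edgeR). Both held their calls with any 1 library left out. The proximal tubule marker sum, whose list holds SLC22A6, was 2059 to 3125 TPM in the earlier and 2808 to 4113 TPM in the later set, and its part was not tested. HNF4A was at 392 and 395 CPM in the earlier and later sets.

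Genes linked to ESRRG in distal segments had lower means in CF for 12 of 18 and higher for 6 (median -0.10), with 0 called. SLC12A3, the thiazide-sensitive cotransporter, was at 244 CPM in CF and 379 in non-CF (log2 difference -0.64, SE 0.172, adjusted p = 0.0843 in edgeR), and SLC12A1, the loop diuretic-sensitive one, at 599 and 729 (-0.29, adjusted p = 0.0966 in edgeR). In both genes 0 of 11 CF libraries lay above the non-CF median. Both were named for their small p in this comparison, so that position is no added support. The summed level of 7 distal convoluted tubule markers, SLC12A3 and CALB1 among them, was 213 to 385 TPM in CF (median 296), 449 to 770 in WT (median 516) and 210 to 966 in HET (median 486), and the 3 earlier-numbered HET libraries, at 210 to 337, overlapped CF. The part of this marker level in the SLC12A3 and CALB1 differences was not tested. FXYD2 was the most abundant by TPM, at a log2 difference of 0.03. By pig number 15 of 18 were higher and 3 lower in later-numbered pigs, with 0 called and 0 at an unadjusted p under 0.05, against 5.28% of all genes called higher, 4.68% lower and 26.5% at an unadjusted p under 0.05.

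Genes linked to PAX8 and GATA3 divided evenly, 12 higher and 12 lower of 24 (median 0.0044), with 0 called in CF against non-CF. CALB1, the calbindin of distal tubule, was at 66.7 CPM in CF and 176 in non-CF (log2 difference -1.40, SE 0.345, adjusted p = 0.0636 in edgeR), and the keratin KRT18 at 19.4 and 28.8 (-0.57, adjusted p = 0.0869 in edgeR), with 0 of 11 CF libraries above the non-CF median for either. These genes too were named for their small p in CF against non-CF, so that position is no added support. ETV4, an ETS factor of the branching duct, was the 1 gene of this list called lower in CF against WT, where 0.187% of all genes were (29.8 and 44.7 CPM, log2 difference -0.58, adjusted p = 0.0486 in edgeR), and it lost that call in 19 of 23 fits that left out a library (adjusted p up to 0.134). The water channel AQP2 was at 62.6 CPM in earlier-numbered and 40.1 in later-numbered pigs (-0.62, adjusted p = 0.0430 in edgeR), in the same direction as GATA3, and was the 1 of 24 called, against 4.68% of all genes called lower. It lost that call in 13 of 23 fits that left out a library and without CF 1 and WT 12 together (-0.46, adjusted p = 0.0838 in edgeR). CDH16, the kidney cadherin and a PAX8 target, was the most abundant of the list at 358 TPM, with a log2 difference of 0.04 in CF against non-CF.

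Among 21 partners and coregulators of metabolism tested, 1 was called in CF against non-CF. CREB1, which binds cyclic AMP response elements such as that printed for PPARGC1A, rose from 71.5 CPM in non-CF to 89.3 in CF (log2 difference 0.32, SE 0.0590, adjusted p = 0.0197 in edgeR), where 0.244% of all genes were called higher. All 11 CF libraries lay above the non-CF median of CREB1, and with 1 library left out its adjusted p was 0.0119 to 0.0496. CREB1 was named for its small p in this comparison, so the position of its libraries is no added support. PPARGC1A itself differed by -0.01. Of the list 16 had higher and 5 lower means (median 0.09). GABPA, a regulator of respiratory genes, was at 43.2 and 38.5 CPM (0.16, adjusted p = 0.128 in edgeR). The corepressor NRIP1 (27.4 TPM) and the mitochondrial deacetylase SIRT3 (26.3 TPM) were the most abundant. By pig number 3 of 21 fell in later-numbered pigs, against 4.68% of all genes called lower. PPARG differed by -0.54, ESRRB by -0.33 and NCOA2 by -0.19 (adjusted p = 0.0176, 0.0375 and 0.0238 in edgeR). PPARG held its call with any 1 library left out, NCOA2 lost it without CF 9 or WT 22, and ESRRB lost it in 12 of 23 such fits.

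The other tubule identity factors, 25 genes with IRX1 and TFAP2B among them, resembled the members in giving no call by label. In CF against non-CF 14 had higher and 11 lower means (median 0.0097), and 1 had an unadjusted p under 0.05: EMX1, at 17 and 21 CPM (log2 difference -0.30, adjusted p = 0.182 in edgeR). EMX2 gave 0.13 (adjusted p = 0.388 in edgeR). By pig number 21 of 25 had lower means in later-numbered pigs (median -0.16, against -0.0072 over all genes), 9 of them at an unadjusted p under 0.05, against 26.5% of all genes in either direction. The epithelial ETS factor EHF was the 1 called, against 4.68% of all genes called lower, and fell by 0.50 (adjusted p = 0.0047 in edgeR). TFCP2L1, a collecting duct factor, was at 169 CPM in earlier-numbered and 139 in later-numbered pigs (-0.28, adjusted p = 0.0536 in edgeR), and with MAF was the most abundant of the list.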

How the data were processed

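From kidney cortex of 23 newborn pigs the authors made stranded, ribosomal RNA-depleted libraries, and reads were pseudoaligned with kallisto to RefSeq transcripts of Sscrofa11.1. The deposited values were estimated counts and TPM per transcript. Estimated counts were summed per symbol and rounded, and TPM summed per symbol. The members, the division by pig number and all gene and marker lists were chosen with earlier results of these data known. The genes named from a list were the 2 with the smallest p for CF against non-CF, up to 3 more called in any comparison, and the 2 highest by TPM. Some genes that these rules name are not reported here.

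Differences were tested with edgeR 4.0.16 (quasi-likelihood, TMM scaling, filterByExpr, R 4.3.3) across all genes with Benjamini-Hochberg adjustment at 0.05, with DESeq2 1.42.0 and the Mann-Whitney test as alternatives. P-values measure the spread between pigs whose litter and sex no label gives, and a fit with the Y-linked gene EIF1AY as a covariate was an alternative for CF against non-CF only. Shares and correlations were tested with 100000 permutations, and label pairs with exact permutation. Correlations used log2 CPM with a prior count of 2. Starts within 1000 bases were merged. The study set CF against non-CF by the Mann-Whitney test. On simulated counts with 200 genes changed 2-fold, edgeR recovered 96% in CF against non-CF, and 4.95% of its calls were false (12.5% for DESeq2). The simulated counts held no difference by pig number. The members differed by at most 0.29 on the log2 scale in CF against non-CF. Changes smaller than 2-fold were not simulated, so the recovery at that size is not known. Sequences were read from the RefSeq Sscrofa11.1 genome.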

Additional observations from a re-analysis of the deposited data

Results flagged for a closer look

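Dixon's test of the gap to the nearest library over the group's range was applied to the WT and HET groups, 58 groups of 6 in all, counting the members and their start shares. About 1 in 20 such groups passes by chance, and 3 passed. GATA3 in WT 12 was 44.5 CPM, where the next WT library had 25.1. HNF4G in HET 15 was 32.7 CPM, where the next HET library had 21.7. The share of ESRRG counts at the start 50490 bases into the gene was 13.7% in HET 21, where the next HET library had 10.8%. WT 12 also had the lowest summed proximal tubule markers of the WT libraries (2059 TPM) and the highest principal cell markers of the WT libraries (374 TPM). The part of these measures was not tested.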

How the results depend on the processing

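The count of members called stayed at 0 in CF against non-CF under 34 alternatives and in each label pair under 27. Later against earlier gave 1 call, 0 to 3 with single libraries left out, 2 (ESRRA and PPARGC1A) in non-CF libraries only, and 0 in CF libraries only or without CF 1 and WT 12. Of all genes 9.96% were called there, 5.29% to 11.5% with single libraries left out, 3.7% in non-CF libraries, 0.314% in CF libraries and 9.79% without CF 1 and WT 12. GATA3 there was -0.34, -0.41 and -0.31 in these last 3 settings. The cause of these changes was not tested.

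Directions turned for small differences. CF against non-CF in earlier-numbered pigs gave -0.025 for PPARA, 0.19 for PPARGC1A and 0.11 for ESRRA, and in later-numbered pigs -0.043 for HNF4A. Without CF 1 and WT 12, chosen after the data were seen, it gave -0.0015 for HNF4A and 0.014 for PPARGC1A, and CF against WT gave -0.053 for ESRRA and 0.10 for GATA3. Later against earlier gave 0.10 for HNF4A, 0.019 for ESRRG in non-CF libraries, and -0.11 for PPARGC1A and -0.037 for ESRRA in CF libraries. With each library left out, CF against non-CF ran from -0.051 to 0.029 for PPARGC1A and from -0.042 to 0.14 for GATA3. CF against WT ran from -0.041 to 0.10 for ESRRA, -0.17 to 0.12 for GATA3, -0.011 to 0.11 for PPARA and -0.0084 to 0.13 for PPARGC1A. In CF against non-CF, with direction kept, HNF4A ran from 0.041 (without WT 12) to 0.15 (without HET 13), ESRRG from -0.17 to -0.081 (without CF 1), PPARA from 0.069 (without CF 9) to 0.17, ESRRA from -0.18 to -0.088 (without HET 20) and HNF4G from 0.22 to 0.36. HET against WT ran from -0.11 to 0.015 for ESRRG and -0.028 to 0.18 for HNF4G, and later against earlier from -0.091 to 0.029 for HNF4A and -0.082 to 0.023 for ESRRG.

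Correlated pairs past adjustment rose from 2 to 5 after centring within label and number set, which uses up degrees of freedom and makes those p-values too small. Centred r was -0.12 for HNF4A and HNF4G, 0.24 for HNF4A and PPARA, -0.021 for HNF4A and PPARGC1A, 0.022 for HNF4A and GATA3, 0.026 for HNF4G and PPARA, 0.075 for HNF4G and ESRRG, -0.13 for HNF4G and GATA3, and -0.24 for PPARGC1A and ESRRA, each opposite in sign to the uncentred value. The transcript share called was 1 with counts or TPM, 2 when start sites were used, and 1 to 2 with single libraries left out: without CF 1 PPARGC1A also passed (-2.87 percentage points, adjusted p = 0.0281). HNF4G's share gave -0.47 points on TPM, and with libraries left out -0.43 to 1.23 points, and HNF4A's -0.69 to 0.11.

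No paired analysis was possible because each pig number occurs in only 1 group. Labels carry no litter or sex, and WT has 2 later-numbered libraries, so its set differences are weakly bounded. In simulation, edgeR recovered 55% of 2-fold differences of the CF effect between the number sets. Over all genes, edgeR called 73 in CF against non-CF, and DESeq2 called 488, a stricter expression filter 150, number set as a term 148, EIF1AY as a covariate 45, later-numbered pigs alone 473 and earlier-numbered pigs alone 0 (1958 at an unadjusted p under 0.05). The edgeR calls for CF against WT, HET against WT, CF against HET and later against earlier were 72, 1, 0 and 2149, and those of DESeq2 573, 32, 56 and 2857. With number set as a term, CF against WT gave 172 and CF against HET gave 4. Without CF 1 and WT 12, CF against WT gave 20, and there were 33 in place of 4 for the difference of the CF effect between the sets. With single libraries left out, the counts ran from 17 (without HET 21) to 203 (without CF 4) in CF against non-CF, from 20 (without WT 12) to 187 (without WT 23) in CF against WT, and from 1148 (without WT 22) to 2491 (without CF 1) in later against earlier, so the background shares move with them.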
